A study of Mus musculus with 11 samples.

Results

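Adipokines are the hormones and other signalling proteins that fat cells release, and 9 of their genes were followed here: Adipoq, Retn, Cfd, Lep, Rbp4, Apln, Nampt, Rarres2 and Angptl4. They were taken by gene symbol from the merged count table, in which all 9 were present among 22600 genes, and all 9 passed the filter on low counts. Of these, 4 were treated as adipocyte-restricted (Adipoq, Retn, Cfd and Lep) and 5 as widely expressed (Rbp4, Apln, Nampt, Rarres2 and Angptl4), a division made from general knowledge of where the genes are expressed and not from these libraries. RNA came from whole distal tibiae of 11 mice aged 24 weeks on a C57BL6/SJL background, fed ad libitum, with 1 library per mouse, 4 from Control mice (genotype BMAd-WT) and 7 from BMAd-DTA mice. In BMAd-DTA mice, FLPo made under the Osterix promoter turns on a Cre that sits within the endogenous Adipoq gene, and this Cre removes a LoxP-flanked STOP so that diphtheria toxin A is made from the ROSA locus and kills the cell. The study states that its controls also carried Osterix-FLPo and the FLPo-dependent Adipoq-Cre, since mice with this Cre make less adiponectin, so the Adipoq gene that is measured here was altered in both groups. As limits of the model, the study reports that recombination was less efficient in young mice and that some marrow adipocytes remained. A small subset of the marrow adipogenic lineage precursors, stromal cells that also express Adipoq, appeared to be reached. For the remaining adipocytes the study offers incomplete recombination as a possibility. Another possibility it offers is that nearby stem cells without adiponectin form new adipocytes to compensate. In mice with the toxin driven by Adipoq, it cites such adipocytes as having much lower adipsin and resistin than adiponectin-positive ones. Whether either possibility holds in these mice was not tested. The study also proposes that products of marrow fat such as resistin and adipsin may inhibit bone formation.

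Bone marrow adipocytes store lipid in droplets and secrete many of the hormones made by white fat. Adiponectin, the product of Adipoq, raises insulin sensitivity through the receptors encoded by Adipor1 and Adipor2, while leptin (Lep) signals energy stores through Lepr, which marrow stromal cells also carry. Retn encodes resistin, a cysteine-rich hormone made in mice mainly by white adipocytes, and Cfd encodes adipsin, the serine protease complement factor D that activates the alternative pathway. The widely expressed members are made by many tissues besides fat, including liver (Rbp4, Rarres2, Angptl4), endothelium (Apln) and nearly all cells (Nampt).

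The sequences around the starts of the 4 adipocyte-restricted genes are shown because all 4 had lower fitted levels in BMAd-DTA mice but varied differently from mouse to mouse. Each run is from RefSeq on GRCm38.p6 and spans 250 bases before to 50 bases after the gene start, 5′ to 3′ on the gene's strand, and all 4 lie on the plus strand. Capitals mark matches, on either strand, to CCAAT, to TTGCNNAA (a form of the motif of the C/EBP family, factors of fat cell differentiation), to TATAAA or to DR1 (the perfect direct repeat with a spacing of 1 base, of the kind that PPARG, the master factor of adipocytes, binds as a dimer with RXR).
Adipoq, chr16:23146286-23146585: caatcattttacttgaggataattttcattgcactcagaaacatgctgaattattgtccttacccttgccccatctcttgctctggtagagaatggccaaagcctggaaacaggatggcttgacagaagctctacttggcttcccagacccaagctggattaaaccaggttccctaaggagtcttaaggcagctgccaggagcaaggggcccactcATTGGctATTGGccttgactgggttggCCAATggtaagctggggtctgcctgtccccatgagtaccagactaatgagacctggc
Retn, chr8:3655520-3655819: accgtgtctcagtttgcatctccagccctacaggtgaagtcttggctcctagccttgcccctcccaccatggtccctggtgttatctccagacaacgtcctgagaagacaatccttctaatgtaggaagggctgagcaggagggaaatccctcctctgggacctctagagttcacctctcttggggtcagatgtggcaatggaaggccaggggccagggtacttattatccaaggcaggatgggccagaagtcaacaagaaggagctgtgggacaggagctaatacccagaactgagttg
Cfd, chr10:79890603-79890902: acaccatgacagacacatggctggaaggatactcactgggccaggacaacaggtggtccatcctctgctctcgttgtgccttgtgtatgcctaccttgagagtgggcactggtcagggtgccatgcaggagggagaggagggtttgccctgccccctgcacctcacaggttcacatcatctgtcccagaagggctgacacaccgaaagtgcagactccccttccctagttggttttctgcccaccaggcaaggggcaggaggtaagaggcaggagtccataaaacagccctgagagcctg
Lep, chr6:29059971-29060270: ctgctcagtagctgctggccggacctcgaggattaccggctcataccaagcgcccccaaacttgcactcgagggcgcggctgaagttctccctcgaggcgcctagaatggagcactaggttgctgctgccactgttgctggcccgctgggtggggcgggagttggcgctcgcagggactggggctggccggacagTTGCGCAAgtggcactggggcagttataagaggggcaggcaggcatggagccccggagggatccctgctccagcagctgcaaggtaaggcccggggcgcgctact

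The Adipoq run held 3 CCAAT matches, which start 34, 27 and 7 bases before the gene start, and the Lep run held 1 palindromic TTGCNNAA match, starting 55 bases before it. Neither the Retn nor the Cfd run held a match to any of the 4 motifs. Over 32851 promoters of the same length, 37.4% held CCAAT, 10.8% held TTGCNNAA, 13.6% held TATAAA and 0.0396% held DR1. These matches describe letters in this window only.

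The genes lie apart in the genome (GRCm38): Adipoq on chromosome 16, 23146536 to 23158028; Retn on chromosome 8, 3655770 to 3660110; Cfd on chromosome 10, 79890853 to 79892655; and Lep on chromosome 6, 29060220 to 29073877. Of the widely expressed members, Rbp4 lies on chromosome 19, 38116629 to 38125281, Apln on X, 48025146 to 48034853, and Nampt on chromosome 12, 32819545 to 32853349. Rarres2 lies on chromosome 6, 48569696 to 48572789, where Lrrc61 overlaps it on the opposite strand, and Angptl4 on chromosome 17, 33773750 to 33781830. Gdap10 overlaps Nampt on the same strand by the span of the genes. Whether their exons overlap was not examined, and reads in any shared exon could not be assigned to 1 of the pair.

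The merged table held 16969529 to 18637663 counts per library, and levels are given as CPM, counts scaled to a common library size by the TMM method. The legends of the panels that show these RNA-seq data describe male mice, and the labels give no sex. Counts of Xist, the RNA of the inactive X chromosome, however ran from 13810 to 20260 across libraries. The summed counts of 4 Y-linked genes (Ddx3y, Eif2s3y, Kdm5d and Uty) did not exceed 1. By these counts every library came from a female mouse. Skeletal muscle RNA differed widely between libraries of both groups: the summed CPM of 12 muscle markers was 18.3 to 1398 in Control mice and 19.6 to 1089 in BMAd-DTA mice. The share of unmapped read pairs, 9.1% to 15.1%, fell into libraries at or below 12% (Control replicates 1 and 4, BMAd-DTA replicates 1, 4 and 7) and libraries above it (the other 6). The labels do not say whether mice came from separate litters, so p-values measure the spread between these mice only.

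**Figure D1:**
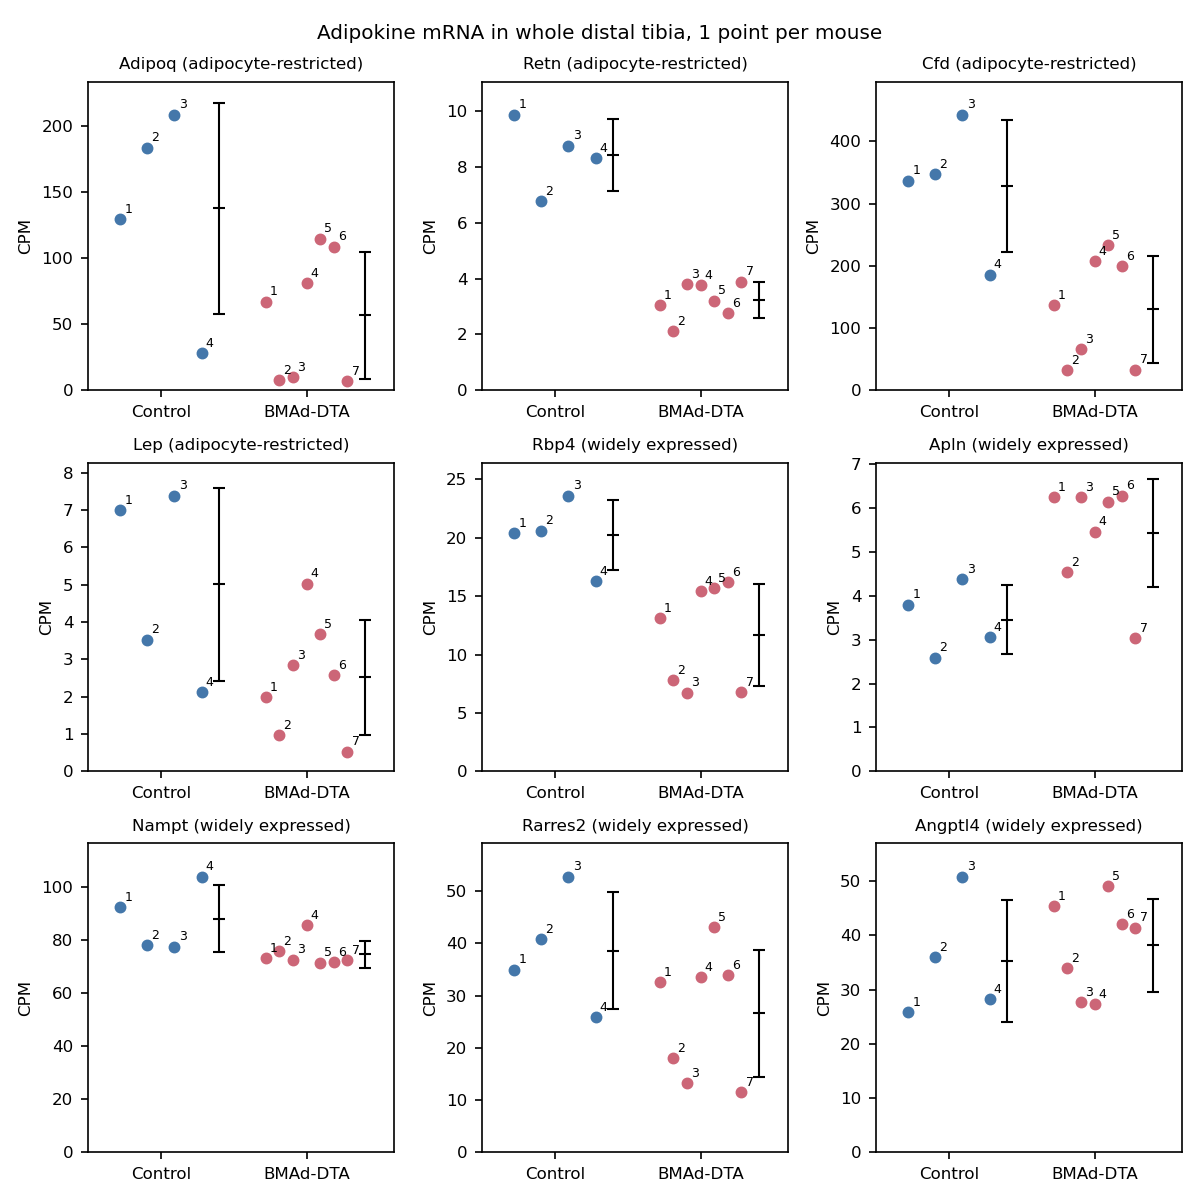
CPM of the 9 adipokine genes on the vertical axis (linear, from 0), 1 point per mouse numbered by replicate, with the mean and SD of each group as a bar at its right (4 Control and 7 BMAd-DTA mice). The groups did not overlap for Retn, 6.77 to 9.86 against 2.12 to 3.89 CPM, and for Rbp4, 16.3 to 23.6 against 6.75 to 16.2 CPM, while Adipoq ranged from 7.19 to 115 CPM within BMAd-DTA mice. Of all genes, 1.04% were lower in BMAd-DTA mice without overlap.

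Resistin was the 1 adipokine gene that passed edgeR's adjusted threshold, and it fell in BMAd-DTA mice. Retn was at 9.86, 6.77, 8.75 and 8.30 CPM in Control replicates 1 to 4. In BMAd-DTA replicates 1 to 7 it was at 3.06, 2.12, 3.80, 3.77, 3.21, 2.76 and 3.89 CPM. No BMAd-DTA mouse reached the level of any control, and the values lay close together within each group, with a highest value 1.46 times the lowest in Control and 1.83 times in BMAd-DTA mice. The mean was 8.42 ± 1.28 CPM (SD, n = 4) in Control and 3.23 ± 0.65 CPM (SD, n = 7) in BMAd-DTA mice, and the underlying counts were 115 to 179 and 37 to 73 per library. The log2 fold change was -1.38 with a standard error of 0.17, that is, 0.384 of the control level (adjusted p = 0.0205, edgeR quasi-likelihood, two-sided, with p-values adjusted over 16496 genes after Benjamini-Hochberg). Of all genes tested, 13 (0.0788%) passed this threshold, 12 of them higher in BMAd-DTA mice, and Retn was the 1 that was lower. Groups without overlap in this direction were seen for 171 genes (1.04%). Leaving out 1 mouse brought the adjusted p of Retn to 0.0889 or 0.0649 for Control replicates 1 and 2 and to 0.0526 or 0.0515 for replicates 1 and 6 of BMAd-DTA, while the log2 fold change stayed between -1.47 and -1.29 over all 11 such fits.

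Adiponectin mRNA varied more between mice of 1 genotype than any other member did. Adipoq was at 130, 184, 209 and 28.5 CPM in Control replicates 1 to 4, and at 67.3, 7.97, 10.2, 81.3, 115, 109 and 7.19 CPM in BMAd-DTA replicates 1 to 7. BMAd-DTA replicates 2, 3 and 7 lay below every control, whereas the other 4 lay between Control replicate 4 and Control replicate 1, so the groups overlapped. The mean was 138 ± 79.9 CPM (SD, n = 4) against 56.7 ± 47.9 CPM (SD, n = 7). The highest value was 7.34 times the lowest in Control and 15.9 times in BMAd-DTA mice, and the SD of log2 CPM was 1.32 and 1.85, where the median over all genes was 0.204 and 0.195. The log2 fold change of -1.28 had a standard error of 0.74 and did not pass the test (adjusted p = 0.416 by edgeR with Benjamini-Hochberg adjustment).

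Adipsin mRNA was the most abundant of the 9 per exon length and followed Adipoq from mouse to mouse. Cfd was at 337, 347, 443 and 186 CPM in Control replicates 1 to 4, and at 137, 33.0, 65.9, 208, 233, 200 and 33.3 CPM in BMAd-DTA replicates 1 to 7. The same 3 BMAd-DTA mice, replicates 2, 3 and 7, had the lowest Cfd, and 4 of 7 were below every control. Means were 328 ± 106 CPM (SD, n = 4) and 130 ± 86.1 CPM (SD, n = 7). The log2 fold change was -1.34 with a standard error of 0.49 (adjusted p = 0.195 by edgeR with Benjamini-Hochberg adjustment, unadjusted p = 0.0179). An unadjusted p under 0.05 was reached by 2708 genes (16.4%), so this value is common among all genes.

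Leptin mRNA was scarce in both groups. Lep was at 7.0, 3.53, 7.39 and 2.13 CPM in Control replicates 1 to 4, and at 2.0, 0.974, 2.84, 5.03, 3.67, 2.58 and 0.533 CPM in BMAd-DTA replicates 1 to 7. Control replicate 4 and BMAd-DTA replicate 1 were nearly alike, BMAd-DTA replicates 2 and 7 were lowest, and 3 of 7 BMAd-DTA mice lay below every control. The counts behind these values were 41 to 127 per Control library and 10 to 92 per BMAd-DTA library, and the means were 5.01 ± 2.59 CPM (SD, n = 4) and 2.52 ± 1.54 CPM (SD, n = 7). The log2 fold change was -0.99 with a standard error of 0.49 (adjusted p = 0.329, same edgeR test and Benjamini-Hochberg adjustment).

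In the 4 adipocyte-restricted genes the fitted log2 fold changes thus ran from -1.38 to -0.99, with a median of -1.31, where the median over all genes tested was 0.0018. In a bulk sample, fewer adipocytes and less of an mRNA per adipocyte cannot be told apart, nor can marrow fat and fat attached to the outside of the bone. Brown adipocyte genes were near 0, with 79 counts of Ucp1 and 58 counts of Cidea summed over all 11 libraries.

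Among the widely expressed members, Rbp4, which encodes the carrier of retinol in blood, was the one whose groups separated. Rbp4 was at 20.4, 20.6, 23.6 and 16.3 CPM in Control replicates 1 to 4, and at 13.1, 7.79, 6.75, 15.4, 15.7, 16.2 and 6.77 CPM in BMAd-DTA replicates 1 to 7. BMAd-DTA replicate 6 lay just below Control replicate 4, and replicates 2, 3 and 7 were again lowest. Groups without overlap in this direction were seen for 1.04% of all genes. The mean was 20.2 ± 3.0 CPM (SD, n = 4) against 11.7 ± 4.39 CPM (SD, n = 7), a log2 fold change of -0.79 with a standard error of 0.25. Its adjusted p was 0.144 by edgeR's quasi-likelihood test and 0.0323 by DESeq2, both with Benjamini-Hochberg adjustment. DESeq2 called 845 of 15583 genes (5.42%), and Retn and Rbp4 were the 2 members among them.

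Apelin mRNA had the opposite sign. Apln, whose peptide acts on the receptor encoded by Aplnr in blood vessels, was at 3.80, 2.59, 4.37 and 3.06 CPM in Control replicates 1 to 4. In BMAd-DTA replicates 1 to 7 it was at 6.25, 4.53, 6.24, 5.46, 6.14, 6.28 and 3.04 CPM. In 6 of 7 BMAd-DTA mice Apln exceeded all controls, and replicate 7 lay among the controls. Groups that did not overlap, with BMAd-DTA higher, were found for 293 genes (1.78%), and Apln was not one of them. Means were 3.46 ± 0.789 CPM (SD, n = 4) and 5.42 ± 1.23 CPM (SD, n = 7), with 44 to 110 counts per library. The log2 fold change was 0.65 with a standard error of 0.22, and the adjusted p with Benjamini-Hochberg adjustment was 0.162 by edgeR's quasi-likelihood test and 0.0625 by DESeq2. The endothelial marker score, the mean log2 CPM of 6 genes, was 6.08 ± 0.0951 in Control and 6.0 ± 0.176 in BMAd-DTA mice, whereas the osteoblast score of 7 genes was 7.39 ± 0.634 and 8.48 ± 0.302, higher in BMAd-DTA mice (difference 1.09, two-sided exact permutation test, p = 0.00303, the smallest that 330 splits of the mice can give). The part of either cell type in the Apln values was not tested.

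The other 3 widely expressed genes differed little. Nampt, which encodes the enzyme that makes nicotinamide mononucleotide for NAD synthesis and is also secreted as visfatin, was at 92.6, 78.1, 77.6 and 104 CPM in Control mice and at 71.6 to 85.8 CPM, with a median of 72.7, in BMAd-DTA mice. All BMAd-DTA mice but replicate 4 were below every control, yet the difference was small, with a log2 fold change of -0.23 and a standard error of 0.084 (adjusted p = 0.183 by edgeR with Benjamini-Hochberg adjustment). Rarres2, which encodes the chemoattractant chemerin, was at 35.0, 40.9, 52.8 and 25.9 CPM in Control mice and at 32.6, 18.1, 13.3, 33.5, 43.1, 34.0 and 11.6 CPM in BMAd-DTA mice. Replicates 2, 3 and 7 were once more below every control and the other 4 overlapped them, and the log2 fold change was -0.54 with a standard error of 0.33 (adjusted p = 0.445, same edgeR test and adjustment). Angptl4, an inhibitor of lipoprotein lipase, was at 25.8, 35.9, 50.8 and 28.3 CPM in Control mice and at 27.3 to 49.0 CPM, with a median of 41.4, in BMAd-DTA mice. Its groups overlapped fully, with a log2 fold change of 0.12 and a standard error of 0.20 (adjusted p = 0.829).

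Over the 5 widely expressed genes the log2 fold changes ran from -0.79 to 0.65, with a median of -0.23. Across all 9 members, 1 passed the adjusted threshold, where 0.0788% of all genes did, 4 were lower and 1 higher at an unadjusted p under 0.05, where 8.53% and 7.89% of all genes were, and 7 of 9 had a negative fitted change, as did 49.6% of all genes. Exon length here merges all annotated exons of a gene, so the order per kilobase depends on the annotation. Per kilobase of exon, Cfd stood highest in Control mice at 356 ± 115 CPM per kb (SD, n = 4), followed by Adipoq at 99.7 ± 57.9. Nampt (17.4 ± 2.47), Rbp4 (15.1 ± 2.23), Rarres2 (14.6 ± 4.25) and Angptl4 (9.94 ± 3.16 CPM per kb) came next, of which Rbp4 and Rarres2 differed by less than the SD of either and Nampt lay above Rbp4 by less than its own SD, while Angptl4 lay below Rarres2 by slightly more than the SD of either. Retn followed at 5.33 ± 0.811, and Lep (1.49 ± 0.772) and Apln (1.10 ± 0.251 CPM per kb) were the lowest, with a difference within the SD of Lep but not within that of Apln. In BMAd-DTA mice Apln, at 1.72 ± 0.391, did not differ beyond the spread from Retn, at 2.05 ± 0.412 CPM per kb (SD, n = 7).

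**Figure D2:**
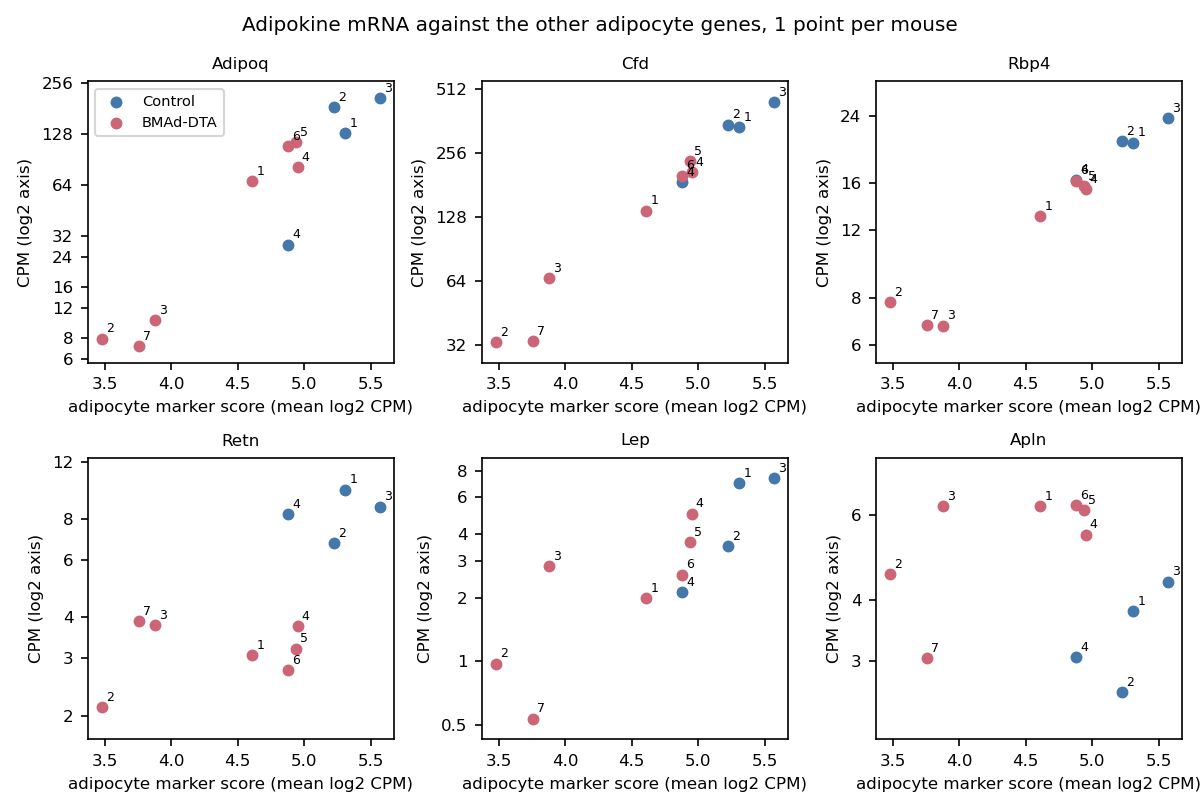
CPM of 6 adipokine genes (vertical, log2 axis) against the adipocyte marker score of the same mouse (horizontal, mean log2 CPM of 15 adipocyte genes that are no members), numbered by replicate, for 4 Control and 7 BMAd-DTA mice. Cfd and Rbp4 rise with the score across both groups, whereas Retn was at 2.12 CPM in the BMAd-DTA mouse with the lowest score, 3.48, and at 2.76 to 3.89 CPM in the other 6.

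The levels were then set beside 15 other adipocyte genes, among them Plin1, Cidec, Fabp4, Pparg and Adrb3, to ask which members differed beyond the adipocyte genes as a whole. The fitted change was negative for all 15, and its median was -0.69. It ran from -1.70 (Adrb3) to -0.12 (Cebpa), a range that holds the -1.38 to -0.99 of the adipocyte-restricted members. Plin1, Plin4 and Cidec were at -1.30, -1.20 and -1.20, whereas Fabp4, Pparg and Dgat2 were at -0.44, -0.41 and -0.20. For 3 of the 15 (Plin1, Adrb3 and Aqp7) the groups did not overlap, where 1.04% of all genes were lower without overlap. By edgeR 12 had an unadjusted p under 0.05 (16.4% of all genes did) and 0 an adjusted one, while DESeq2 called 3 (Lipe, Pnpla2 and Adrb3) beside 5.42% of all genes. The adipocyte score, the mean log2 CPM of the 15, was 5.31, 5.22, 5.57 and 4.88 in Control replicates 1 to 4 and 4.61, 3.48, 3.88, 4.95, 4.94, 4.88 and 3.76 in BMAd-DTA replicates 1 to 7. The difference of -0.89 had p = 0.0303 (two-sided exact permutation test), which rose to at most 0.0667 when a single mouse was left out (Control replicates 1, 2 and 3, BMAd-DTA replicates 3 and 7). BMAd-DTA replicates 2, 3 and 7, the lowest for Adipoq, Cfd, Rbp4 and Rarres2, were also the lowest by this score, and BMAd-DTA replicates 4, 5 and 6 had scores like that of Control replicate 4. Among BMAd-DTA mice the scores left a gap of 0.735 between 3.88 and 4.61, and with 3 mice on 1 side and 4 on the other no correlation within the group could be tested.

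Retn and the other members were also read in mice with like adipocyte scores. At a score of 4.88, Control replicate 4 had 8.30 CPM of Retn and BMAd-DTA replicate 6 had 2.76 CPM, while their Cfd was 186 and 200 CPM and their Rbp4 16.3 and 16.2 CPM. BMAd-DTA replicates 3 and 7, with scores of 3.88 and 3.76, had 3.80 and 3.89 CPM of Retn, and replicate 2, with the lowest score, 3.48, had the lowest Retn, 2.12 CPM. The pair at 4.88 is 1 mouse against 1, and they differed in summed muscle markers (18.3 and 1089 CPM) and in the erythroid score (9.94, the lowest of all mice, and 10.3), whose part was not tested. Adipoq differed the other way in this pair, at 28.5 CPM in Control replicate 4 and 109 CPM in BMAd-DTA replicate 6.

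With the adipocyte score as a covariate in the edgeR fit, the log2 fold change of Retn was -1.31 with a standard error of 0.25 (unadjusted p = 0.000204, adjusted p = 0.194, where 1920 genes or 11.6% had an unadjusted p under 0.05). In the same fit Cfd was at 0.045, Rbp4 at -0.095 and Lep at 0.16 on the log2 scale, with standard errors of 0.15, 0.14 and 0.49. Adipoq changed sign, to 0.81 with a standard error of 0.36, and Rarres2 did so too, to 0.32 with a standard error of 0.21. Apln was at 0.98 with a standard error of 0.26 (unadjusted p = 0.00243, adjusted p = 0.267 by the same edgeR fit), Nampt at -0.25 and Angptl4 at 0.36. By this edgeR fit 0 members had an adjusted p under 0.05, and 4 (Retn, Apln, Adipoq and Nampt) had an unadjusted one. The score was itself lower in BMAd-DTA mice, so the fit separates genotype from score only through the mice whose scores overlap.

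**Figure D3:**
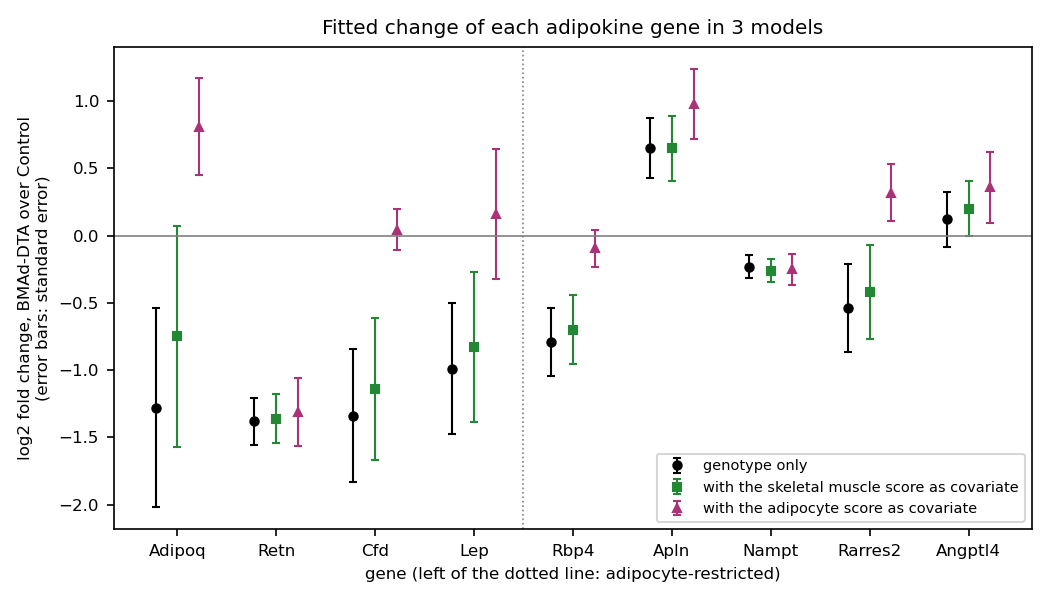
Fitted log2 fold change of each adipokine gene, BMAd-DTA over Control, with its standard error, in a fit with genotype alone (circles), with the skeletal muscle score as a covariate (squares) and with the adipocyte score as a covariate (triangles). Retn stayed between -1.38 and -1.31 in all 3 fits, whereas Cfd moved from -1.34 to 0.045 and Adipoq from -1.28 to 0.81 with the adipocyte score.

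A related question was asked with a single value per mouse, the log2 CPM of a member (prior count 2) minus the adipocyte score. For it 9 comparisons were made by exact permutation of the mice (330 splits, two-sided). Subtraction takes a member to change by as much as the score does, whereas the covariate fit estimates how much it changes. Since the score itself differed by -0.89, a gene with no change of its own gives a difference of about that size with a positive sign, so a positive value here largely restates the lower score. A negative value arises for any gene that fell more than the score, as Plin1 and Cidec did, with fitted changes of -1.30 and -1.20. The fitted changes of Cfd, -1.34, and Adipoq, -1.28, were like theirs, so a negative value does not set a gene apart from these markers. Apln relative to the score was -3.34, -3.78, -3.41 and -3.22 in Control replicates 1 to 4 and -1.95, -1.27, -1.21, -2.47, -2.30, -2.20 and -2.11 in BMAd-DTA replicates 1 to 7. All 7 BMAd-DTA mice lay above every control, with a difference of 1.51 (p = 0.00303, exact permutation test, the smallest these splits allow), more than the 0.65 of its own fitted change, whose groups overlapped. For Angptl4, whose own fitted change was 0.12, the difference was 1.02 (exact permutation p = 0.0273), most of which is the difference in the score. Cfd differed by -0.77 (exact permutation p = 0.0515), Adipoq by -0.85 (p = 0.218) and Retn by -0.48 (p = 0.209). In the covariate fit these 3 genes were at 0.045, 0.81 and -1.31. The readings thus disagree in size or sign for them, and which of the readings applies was not tested. Rbp4 relative to the score was nearly the same in both groups, -0.91 ± 0.0774 in Control and -0.90 ± 0.192 in BMAd-DTA mice. For Lep, Nampt and Rarres2 the differences were -0.18, 0.66 and 0.24 (exact permutation p = 0.664, 0.106 and 0.209). The Retn value depended on how the score was formed, and relative to the log2 of the summed CPM of the 15 genes it was -0.78 (exact permutation p = 0.0303).

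Muscle RNA and mapping were compared with the adipokine values in the same way. With the muscle score as a covariate, the log2 fold change was -1.36 for Retn (adjusted p = 0.0466 by edgeR with Benjamini-Hochberg adjustment), -0.75 for Adipoq, -1.14 for Cfd, -0.83 for Lep, -0.70 for Rbp4 and 0.65 for Apln. Among the 7 libraries with over 100 summed CPM of muscle markers, 3 of them Control, Retn was at a mean of 8.46 against 3.37 CPM (log2 fold change -1.33, adjusted p = 0.0402 by edgeR). Adipoq was -1.40 and Cfd -1.38 on the log2 scale in these 7 libraries. In the 4 muscle-poor libraries Retn was at 8.30 CPM in the 1 Control and 2.12 to 3.80 CPM in the 3 BMAd-DTA mice. Adipoq and Lep went the other way there, at 28.5 and 2.13 CPM in that Control against means of 44.2 and 2.49 CPM. Cfd was at 186 CPM in that Control against a mean of 110 CPM. Within the libraries with fewer unmapped pairs the log2 fold change of Retn was -1.34, and within those with more it was -1.39, where edgeR called 0 genes in either split and 2 and 5 members had an unadjusted p under 0.05, as did 13% and 9.35% of all genes. The corresponding pairs of values were -0.61 and -1.71 for Adipoq, -1.05 and -1.58 for Cfd, -0.85 and -1.13 for Lep, -0.64 and -0.94 for Rbp4, 0.52 and 0.72 for Apln, -0.34 and -0.10 for Nampt and -0.23 and -0.80 for Rarres2. Angptl4 changed sign between them, 0.50 and -0.19. Scores for neutrophils, macrophages, endothelium, marrow stroma and erythroid cells differed by -0.28 to 0.10 (exact permutation p = 0.179 to 0.873), and their part in the adipokine values was not tested.

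The genes whose levels followed each adipokine most closely from mouse to mouse were found among 14889 genes, by the correlation over 11 libraries of log2 CPM centred on the group means. These values are a description, since all genes of a library share its depth and its mixture of cells. Each is among the highest picked from 14889, and how high such values run by chance was not tested. BMAd-DTA replicates 2, 3 and 7 lay apart from the rest of their group by the adipocyte score. How far the correlations rest on these few mice was not tested. For Cfd they were Cidec (r = 0.989), Plin1 (0.987) and Gm10851 (0.985), of which Cidec and Plin1 coat lipid droplets. For Adipoq they were Gpd1 (r = 0.966), an enzyme that supplies glycerol phosphate for triglycerides, the amine oxidase gene Aoc3 (0.964) and Cfd (0.961). Aoc3 was also among the 3 for Rbp4 (r = 0.981, with Adcyap1r1 at 0.98 and Mrps6 at 0.97) and for Rarres2 (0.966, after Aplp2 at 0.974 and C130074G19Rik at 0.97). For Retn, with only 37 to 179 counts per library, the 3 were Ptger1 (r = 0.902), Inhba (0.898) and Zfp382 (0.889). None of them was a listed adipocyte marker, as for every member but Cfd and Adipoq. For Lep they were Rec114 (r = 0.954), Hrct1 (0.945) and Klf15 (0.941), and for Apln S100a16 (0.948), Snai1 (0.928) and Atp6v1f (0.926). For Nampt they were Casp1 (r = 0.925), Magohb (0.897) and Gm34220 (0.888), and for Angptl4 Bloc1s2 (0.939), Zfp931 (0.914) and Ovca2 (0.892).

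The receptors and partners through which the 9 adipokines act had log2 fold changes of -0.54 (Lpl) to 0.97 (Stra6), neither of which passed the test. Only BMAd-DTA replicates 1 and 4, at 6.25 and 2.02 CPM of Stra6, lay above every control. The BMAd-DTA median of Stra6, 0.373 CPM, was below the Control median, 0.71 CPM. Of 35 listed genes, 29 were tested, and 0 passed edgeR's adjusted threshold, with 5 lower and 0 higher at an unadjusted p under 0.05 and a median log2 fold change of -0.07. This count is near the background, since 16.4% of all genes had such a p, 8.53% lower and 7.89% higher, and the 5 are given as values only. Lepr, the leptin receptor and a marker of marrow stromal cells, was at 210, 295, 341 and 226 CPM in Control mice and at 136 to 249 CPM, with a median of 201, in BMAd-DTA mice (log2 fold change -0.48, standard error 0.17, adjusted p = 0.182 by edgeR with Benjamini-Hochberg adjustment). The 2 lowest Lepr values, 136 and 142 CPM, were in BMAd-DTA replicates 3 and 2, and 5 of 7 mice were below every control. Adipor2, a receptor of adiponectin, was at 159 ± 7.01 CPM (SD, n = 4) in Control and 141 ± 7.95 CPM (SD, n = 7) in BMAd-DTA mice, with 6 of 7 mice below every control and a log2 fold change of -0.17. The log2 fold change was -0.22 for Jak2, the kinase of the leptin receptor, -0.25 for Tlr4, reported as a resistin receptor, and -0.46 for Nmnat3, an NAD synthesis enzyme downstream of NAMPT (adjusted p = 0.148, 0.205 and 0.144 by edgeR). DESeq2 called 0 of the 29. Leaving out Control replicate 3 brought Jak2 to an adjusted p of 0.0497, and leaving out Control replicate 4 brought Nmnat3 to 0.0487, both by edgeR.

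**Figure D4:**
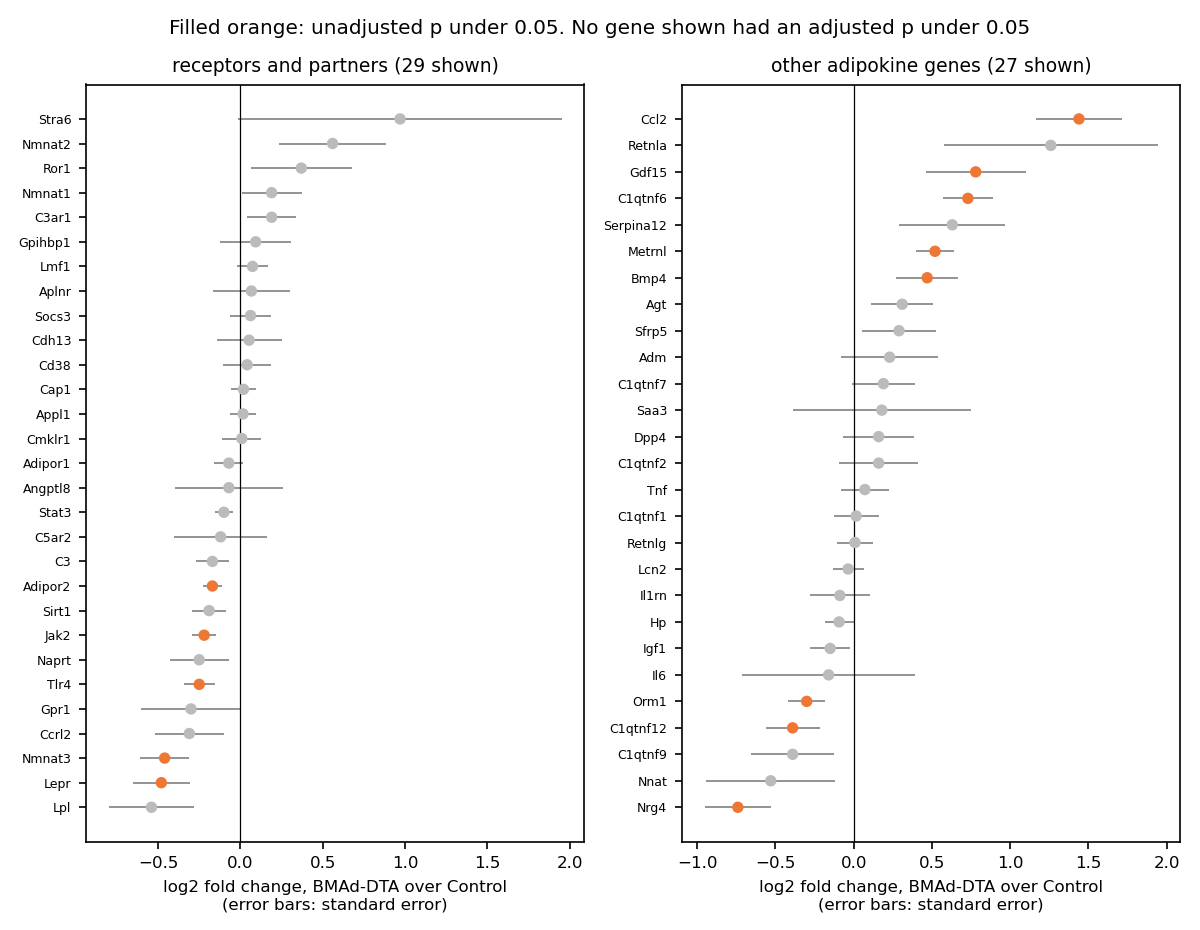
Log2 fold change, BMAd-DTA over Control, with its standard error for 29 receptors and partners of the adipokines (left) and 27 further adipokine genes (right), ordered by size, where orange marks an unadjusted edgeR p under 0.05. On the left the 5 orange genes are all lower, and on the right 5 are higher and 3 lower, with Ccl2 at 1.44 and Nrg4 at -0.74 at the ends, where 16.4% of all genes had such a p.

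Other secreted products of fat cells showed both directions. Of 35 further genes listed as adipokines, 28 were tested and 0 had an adjusted p under 0.05 by edgeR, with 6 higher and 3 lower at an unadjusted p under 0.05, where 7.89% and 8.53% of all genes were, and a median log2 fold change of 0.16. Nrg4, a neuregulin released by adipocytes, was at 6.39, 5.83, 8.1 and 7.0 CPM in Control and 2.40 to 5.63 CPM in BMAd-DTA mice, without overlap (log2 fold change -0.74, standard error 0.21, adjusted p = 0.113 by edgeR). Ccl2, a chemokine that draws monocytes and is made by stromal and many other cells, was without overlap in the other direction, at 1.40 to 2.20 CPM in Control and 3.17 to 7.40 CPM in BMAd-DTA mice (log2 fold change 1.44, standard error 0.27, adjusted p = 0.0675 by edgeR). Of all genes, 1.04% were lower and 1.78% higher in BMAd-DTA mice without overlap. For C1qtnf6, a paralog of adiponectin, the log2 fold change was 0.73 (adjusted p = 0.072 by edgeR), beside -1.28 for Adipoq. Metrnl, which encodes the secreted protein meteorin-like, was at 0.52 (adjusted p = 0.072 by edgeR). DESeq2, which called 5.42% of all genes, called 5 genes of the list, among them Nrg4, Ccl2, C1qtnf6 and Metrnl. Gdf15, Bmp4 and Orm1 had log2 fold changes of 0.78, 0.47 and -0.30 (adjusted p = 0.24, 0.262 and 0.222 by edgeR), and C1qtnf12, which also had an unadjusted p under 0.05, one of -0.39. Of the resistin-like genes, Retnlg, a neutrophil gene, was at 604 ± 112 CPM (SD, n = 4) and 608 ± 66.7 CPM (SD, n = 7), with a log2 fold change of 0.0088, and Retnla was at 2.11 ± 0.679 and 5.07 ± 4.92 CPM, with a log2 fold change of 1.26 and a standard error of 0.68 (adjusted p = 0.381 by edgeR).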

How the data were processed

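The authors isolated RNA from snap-frozen, powdered distal tibiae, made strand-specific mRNA libraries, sequenced them on DNBSEQ, checked reads with FastQC 0.11.9, aligned them to mm10 with STAR and deposited the counts per gene as whole read pairs, per library and as a merged table, without normalization. The annotation release is not given in the sources used here. GENCODE M21 (GRCm38) held 99.9% of the merged table's identifiers. Per the labels, mice were grouped by genotype. In the per-library counts, each library held 24174541 to 25894266 pairs, of which 9.1% to 15.1% were unmapped, 6.68% to 9.07% multimapping, 6.58% to 8.44% outside genes and 1.49% to 1.7% ambiguous. These were left out, and genes with near-identical copies are therefore less certain.

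Differences were tested with the quasi-likelihood method of edgeR 4.0.16 in R 4.3.3, after filterByExpr and TMM scaling, two-sided, with Benjamini-Hochberg adjustment across the 16496 genes kept. The standard error is the log2 fold change over the square root of F. Scores are mean log2 CPM with a prior count of 2, tested by exact permutation over 330 splits. Pairs of libraries within a group were not alike within sampling noise (chi-square per gene at least 16.7, where noise gives 1). The text names all 9 members, listed genes with an unadjusted p under 0.05 (at most 8 per list by p), Retnla, Retnlg, Lepr and the 3 genes most like each member. The result of 1 gene of these lists is not reported here, though it stays in the counts over its list. C1qtnf12 falls outside this rule and was named after its value was seen. The members and lists were chosen with earlier results of these data known. The steps were tested on simulated data. Alternatives were DESeq2 1.42.0, limma-voom (limma 3.58.1), other scalings, filters and count columns, covariates, other forms of the adipocyte score, and leaving out each mouse.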

Additional observations from a re-analysis of the deposited data

Results flagged for a closer look

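Among 34 groups of values checked for a sample far from the rest by Dixon's ratio, 3 stood out, and chance gives about 1 in 20 such groups. The Nampt level of BMAd-DTA replicate 4, 85.8 CPM, lay above the other 6 mice of its group by 0.694 of the group's range. BMAd-DTA replicate 5 had the lowest neutrophil marker score of its group, 10.3, and the highest erythroid marker score, 10.9 (both mean log2 CPM), with gaps of 0.612 and 0.698 of the range. In that mouse the adipokine values lay inside those of the other BMAd-DTA mice except for the highest Adipoq, 115 CPM, Cfd, 233 CPM, Rarres2, 43.1 CPM, and Angptl4, 49.0 CPM, and the lowest Nampt, 71.6 CPM. The part of these cell types in the values was not tested.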

How the results depend on the processing

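No paired analysis was possible because the labels carry no replicate numbers that link mice across the groups. Counts of 10 to 179 per library limit Lep, Retn and Apln most. Alternatives on muscle-rich libraries and on unmapped pairs were chosen after seeing the data, and the cause of each shift below was not tested.

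The number of genes called, 13, was 845 by DESeq2, 20 by limma-voom, 20 with DESeq2's size factors, 3 with the muscle score and 1 with the adipocyte score as a covariate, 103 in muscle-rich libraries, 0 in each split by unmapped pairs, and 0 to 292 without 1 mouse (292 without Control replicate 3, 89 without Control replicate 4, 8 without BMAd-DTA replicate 3, 3 without BMAd-DTA replicate 4, and 0 without Control replicate 1 or 2 or BMAd-DTA replicate 1 or 6). Of the members, 2 were called by DESeq2, 0 with the adipocyte covariate and in either split, and 0 to 1 without 1 mouse. DESeq2 called 5 other adipokine genes and 3 adipocyte markers. Without 1 mouse, 0 to 1 receptors and 0 to 2 other adipokine genes were called, the 2 being Ccl2 and Metrnl without Control replicate 3.

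With the adipocyte score as a covariate the log2 fold change changed sign for Adipoq (0.81), Cfd (0.045), Lep (0.16) and Rarres2 (0.32). Angptl4 changed sign in libraries with more unmapped pairs (-0.19) and ranged from -0.0068 (without Control replicate 1) to 0.35 without 1 mouse. Retn kept its sign in all 25 alternatives, as did Apln, Nampt and Rbp4, and in 7 of them its adjusted p was not under 0.05.

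Relative to the log2 of the summed CPM of the adipocyte list, Retn was at -0.78 (p = 0.0303), Cfd at -1.07 (p = 0.0394), Rbp4 at -0.29 (p = 0.0182) and Rarres2 at -0.061, all by exact permutation. Cfd was at -0.64 (exact permutation p = 0.0424) relative to Plin1, Cidec, Fabp4 and Pparg alone, and at -0.73 (exact permutation p = 0.0485) with a prior count of 0.5. A gene that fell as Plin1 did can also give such negative values. Without 1 mouse, the relative value ranged from -0.90 to -0.60 for Cfd (exact permutation p under 0.05 without Control replicate 4 or BMAd-DTA replicate 4, 5 or 6), -0.41 to 0.0085 for Lep, -0.051 to 0.049 for Rbp4 and 0.87 to 1.19 for Angptl4 (0.05 or above without Control replicate 1, 2 or 4). The score difference ranged from -1.01 to -0.74 for adipocytes, -0.13 to 0.037 for marrow stroma, -0.084 to 0.028 for neutrophils and -0.52 to -0.16 for erythroid cells (exact permutation p = 0.0167 without Control replicate 4).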
